A study of Mus musculus with 23 samples.

Results

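The genes described here are 10 immediate early genes: Fos, Fosb, Jun, Junb, Egr1, Egr2, Egr3, Atf3, Ier2 and Nr4a1. They were chosen by name, as the rows of the count table that carry these symbols, and all 10 were found among its 24062 genes. Immediate early genes are transcribed within minutes of a stimulus, from kinase signals that act on factors already present in the cell, and need no new protein synthesis. Their mRNAs decay quickly, and most of their proteins are transcription factors that act on later genes. In muscle and fat they are known to respond to contraction, nerve activity, hormones and stress, and to handling of the tissue.

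Whole gastrocnemius muscle and whole fat, a depot that the labels call IAT, were sequenced from mice aged 8 to 10 months on a 129Sve/C57BL/6 mix. HL1002P mice had the genotype BubR1H/L1002P, HH mice the genotype BubR1H/H, and WT mice were the controls. BubR1 is the mitotic checkpoint protein encoded by Bub1b, and the H allele, which both mutants carry, is known as a hypomorph that yields less protein. There were 4 HL1002P, 3 HH and 4 WT muscle libraries, and 4 HL1002P, 4 HH and 4 WT fat libraries, all untreated as far as the labels say. No label says whether a library came from 1 mouse or a pool, so p-values measure only the spread between these libraries, which may be partly technical. By Xist and Y-linked transcripts each group held male and female libraries, so those of a group were not all from the same mice.

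Library totals were 34.1 to 55.3 M counts in muscle and 22.6 to 58.8 M in fat. The mutated gene, Bub1b, had 0.181 to 0.273 CPM (counts per M of the TMM-scaled library size) in HL1002P muscle, 0.326 to 0.52 CPM in HH muscle and 0.726 to 0.952 CPM in WT muscle, so that every mutant library was below every WT library. In fat Bub1b averaged 17.2 ± 7.57 CPM in HL1002P, 10.2 ± 3.51 CPM in HH and 9.88 ± 1.99 CPM in WT (SD, n = 4 each), and the libraries overlapped. The 10 muscle fibre markers, Acta1 and Ckm among them, summed to 142000 to 204000 CPM in muscle and to 39.3 to 15700 CPM in fat, and the 10 adipocyte markers, Adipoq and Plin1 among them, to 3480 to 6920 CPM in muscle and 13800 to 61300 CPM in fat. The fat libraries HH 1 and WT 3 stood apart, with muscle fibre sums of 15000 and 15700 CPM against at most 5960 CPM in any other fat library.

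The members fall into families. Fos (chr12:85473890-85477274) and Fosb (chr7:19302696-19310118) encode Fos proteins, which pair with Jun proteins, encoded by Jun (chr4:95049036-95052222) and Junb (chr8:84976909-84978748), to form the transcription factor AP-1. Egr1, Egr2 (chr10:67534469-67542188) and Egr3 (chr14:70077317-70082613) encode zinc finger factors. Atf3 (chr1:191170296-191183333) encodes a stress-induced bZIP factor, Ier2 (chr8:84661331-84662852) a nuclear protein, and Nr4a1 (chr15:101253902-101274795) an orphan nuclear receptor. Coordinates are those of RefSeq on GRCm38. Egr2 overlaps the long non-coding RNA gene Gm32255 there, and since the library kit does not keep the strand, reads of the shared stretch cannot be told apart.

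Promoter windows of 300 bases, from 250 before to 50 after the start, were taken from the RefSeq table of GRCm38.p6. It held windows for 7 members and none for Egr1, Egr3 and Ier2. Windows are shown for Fos and Nr4a1, which varied most between fat libraries together with Fosb, for Jun, which did not follow them in muscle, and for 1 of the 5 Egr2 starts. Each is written 5′ to 3′ on the gene's strand. Capitals mark the binding motif of serum response factor (the CArG box, which occurs in Egr2), the cAMP response element in the form TGACNTCA (in Jun), and the core of that element, TGACG, on either strand, where CGTCA is its reverse. A full element with G as the central base would hold the core as well.
Fos, chr12:85473640-85473939, plus strand: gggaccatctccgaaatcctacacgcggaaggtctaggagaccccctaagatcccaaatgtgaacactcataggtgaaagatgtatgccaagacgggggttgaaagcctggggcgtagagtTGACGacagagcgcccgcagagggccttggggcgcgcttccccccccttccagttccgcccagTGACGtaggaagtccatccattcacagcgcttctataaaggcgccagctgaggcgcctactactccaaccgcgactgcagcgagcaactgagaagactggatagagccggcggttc
Jun, chr4:95052173-95052472, minus strand: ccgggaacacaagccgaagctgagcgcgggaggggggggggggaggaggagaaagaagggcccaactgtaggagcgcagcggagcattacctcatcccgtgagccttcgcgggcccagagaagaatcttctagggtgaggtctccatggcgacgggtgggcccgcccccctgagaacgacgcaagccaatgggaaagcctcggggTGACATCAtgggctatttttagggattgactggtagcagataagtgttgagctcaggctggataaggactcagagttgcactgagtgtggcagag
Nr4a1, chr15:101266596-101266895, plus strand: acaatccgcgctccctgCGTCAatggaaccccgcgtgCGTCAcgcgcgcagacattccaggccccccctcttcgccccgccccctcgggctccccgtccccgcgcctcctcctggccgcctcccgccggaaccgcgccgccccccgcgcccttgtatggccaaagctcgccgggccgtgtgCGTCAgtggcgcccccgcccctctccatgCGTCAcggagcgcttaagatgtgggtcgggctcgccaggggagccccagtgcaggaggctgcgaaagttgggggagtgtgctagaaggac
Egr2, chr10:67537619-67537918, plus strand: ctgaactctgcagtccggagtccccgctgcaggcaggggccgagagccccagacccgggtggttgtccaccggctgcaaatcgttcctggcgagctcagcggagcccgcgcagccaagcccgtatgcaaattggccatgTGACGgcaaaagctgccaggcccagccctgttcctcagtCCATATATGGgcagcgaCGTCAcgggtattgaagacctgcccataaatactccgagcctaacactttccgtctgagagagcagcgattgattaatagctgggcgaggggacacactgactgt

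The core TGACG lay in windows of 6 of the 7 members, Fos, Fosb, Junb, Egr2, Atf3 and Nr4a1. Counted by window, it lay in 8 of their 11 windows and in 20.8% of the 32851 promoter windows of the table. Nr4a1 had 4 copies, at 233, 213, 69 and 40 bases before the start, and Fos had 2, at 129 and 66 bases before the start. Jun had none, and had instead TGACATCA at 45 bases before the start, in a form found in 8.83% of all windows. A CArG box lay in windows of Egr2 alone among the 7. These were 4 of the 11 windows, some of them overlapping, against 1.63% of all windows. In the window shown it began 72 bases before the start. The AP-1 motif TGACTCA lay in none of the members' windows and in 5.20% of all windows, and TATAAA lay in those of Fos and Junb and in 13.6% of all windows. These matches describe the letters in these windows only.

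Per kilobase of exon, Nr4a1 had the highest level of the 10 in WT muscle, 98.7 ± 27.4 CPM per kb (SD, n = 4), followed by Jun at 33.2 ± 4.85 and Atf3 at 13.4 ± 7.23. Fos, Junb, Ier2 and Egr1 lay between 10.9 and 4.88 CPM per kb there, and Egr2, Egr3 and Fosb below 1. In WT fat the order of levels per kilobase was another one. Fos stood at 59.1 ± 44.2 CPM per kb, Jun at 53.7 ± 11.2, Ier2 at 52.6 ± 18.5, Junb at 47.4 ± 19.4 and Egr1 at 38.8 ± 22.3, while Nr4a1 stood at 14.4 ± 10.6 and Atf3 at 9.42 ± 3.77. Egr2, Fosb and Egr3 were again the lowest, at 3.38, 1.3 and 1.27 CPM per kb. Egr1, the member not yet placed, lies at chr18:34861207-34864956. Counts behind these levels ran from 12 reads, for Egr3 in WT muscle replicate 3, to 19836 reads, for Nr4a1 in WT muscle replicate 4.

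**Figure D1:**
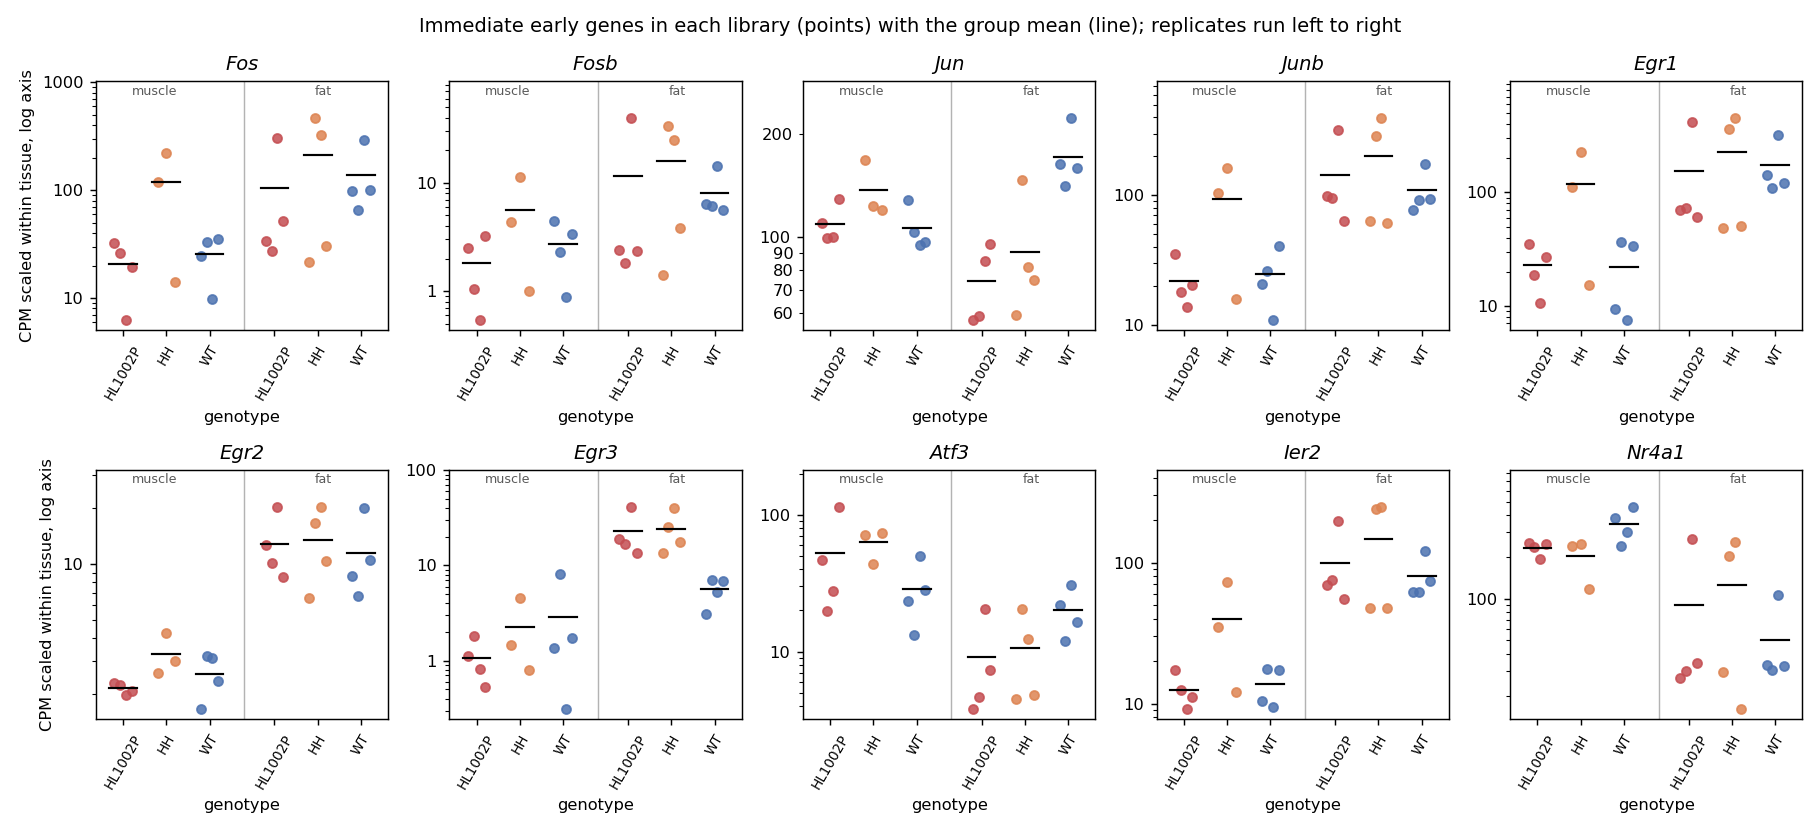
CPM of each of the 10 immediate early genes in every library (points, log axis) with the group mean (line), for HL1002P, HH and WT muscle on the left and fat on the right of each panel; libraries were scaled within a tissue, so heights are not to be compared across the grey line. Fos in HH muscle lies at 120, 222 and 14.2 CPM, and Egr3 in fat is higher in all mutant libraries than in all WT libraries.

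The spread between libraries of a group was wide for most members. The SD of log2 CPM within groups (prior count of 2) had a median of 0.96 over the 10 genes in muscle, against 0.25 over all 14580 genes tested there, and of 1 in fat, against 0.35 over 16266 genes. In muscle 7 of the 10 were above the 90th percentile of all genes: Egr3 (SD of 1.36), Fos (1.33), Egr1 (1.33), Fosb (1.27), Junb (1.08), Atf3 (0.85) and Ier2 (0.75). In fat 5 of 10 were: Fosb (1.78), Fos (1.70), Nr4a1 (1.55), Egr1 (1.33) and Junb (1.05). Jun was the steadiest member, with an SD of 0.21 in muscle, at percentile 41.1 of all genes, and 0.42 in fat, at percentile 59.4. Spread falls with level, and among the 1000 genes nearest in mean level Jun was at percentile 71.1 in muscle and 82.2 in fat, Nr4a1 at 94.5 and 99.8, and Fos at 99.8 and 99.5.

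**Figure D2:**
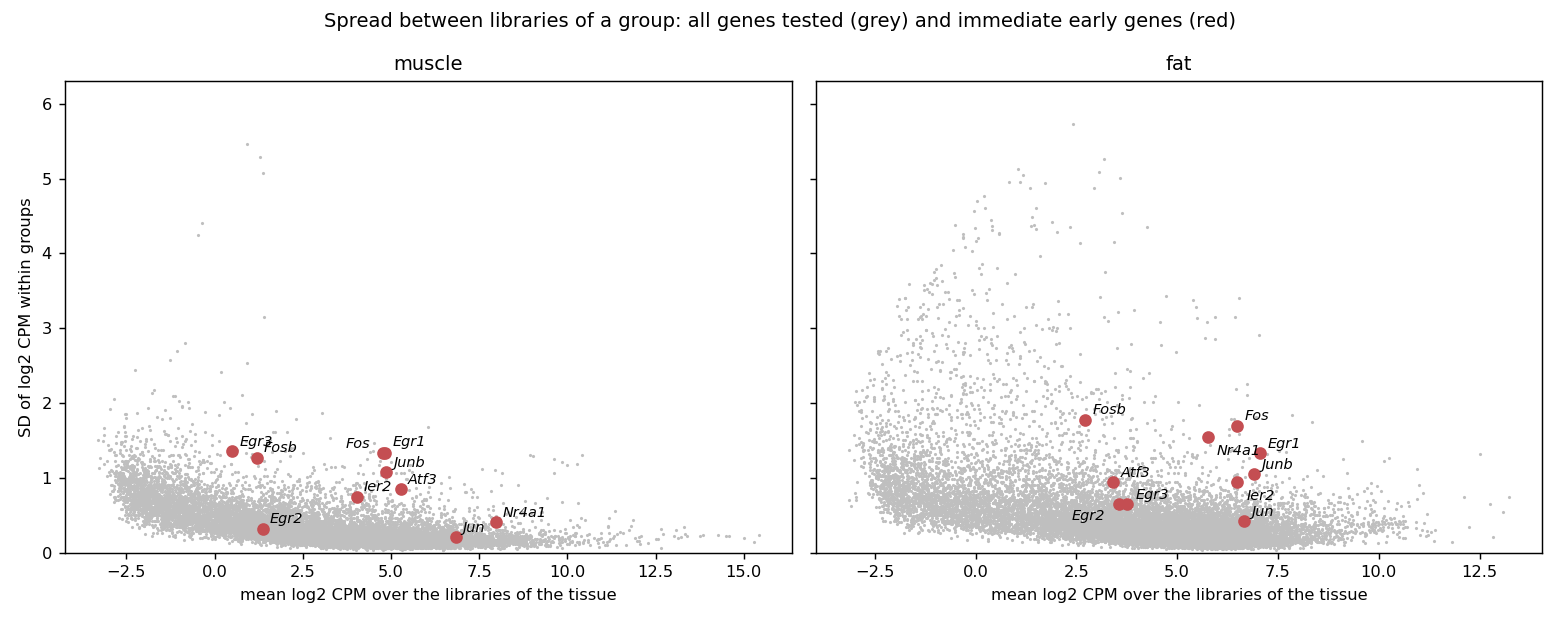
SD of log2 CPM within groups (vertical axis) against mean log2 CPM (horizontal axis) for all genes tested (grey) and the 10 immediate early genes (red), muscle on the left and fat on the right. Fos, Fosb, Egr1 and Junb lie at the upper edge of the dense grey band or above it, and Jun lies within it in both tissues, at an SD of 0.21 in muscle and 0.42 in fat.

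The deviations from the group means were shared between members, more closely in fat than in muscle. In fat HL1002P replicate 3, HH replicate 2 and WT replicate 3 were above their group mean for all 10 genes, and HH replicate 3 for 9 of 10, with Jun the exception. The other 8 fat libraries were above it for at most 2 members. Fos, the best known of these genes, had 34.1, 27.1, 308 and 52.0 CPM in HL1002P fat, 21.7, 468, 328 and 30.3 CPM in HH fat, and 98.1, 64.9, 293 and 100.0 CPM in WT fat. The same libraries were high for Nr4a1, which had 26.7, 29.9, 270 and 34.4 CPM in HL1002P fat, 29.6, 202, 258 and 16.0 CPM in HH fat, and 33.1, 30.6, 106 and 32.5 CPM in WT fat. Each genotype held at least 1 high library. Replicate 3 was high in fat of every genotype, whereas in muscle it was the lowest library of every group by the members' mean deviation. What the replicate numbers stand for is not known, and in HH fat replicate 2 was high as well.

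The 4 high fat libraries also had the lowest adipocyte marker sums of their groups. The sums were 13800 CPM in HL1002P replicate 3 against 18000 to 30900 in the other HL1002P libraries, 14200 and 16000 in HH replicates 2 and 3 against 32200 and 38400, and 28900 in WT replicate 3 against 32800 to 61300. Of the 4, only WT replicate 3 was high in muscle fibre markers, and the muscle fibre sums of the others were 56 to 160 CPM. The 12 heat shock genes listed summed to 2720, 3290, 2760 and 2860 CPM in these libraries, within the 2610 to 3810 CPM of all fat libraries. The part of cell composition in the members' levels was not tested, and in whole tissue fewer cells of a type and less RNA per cell cannot be told apart.

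**Figure D3:**
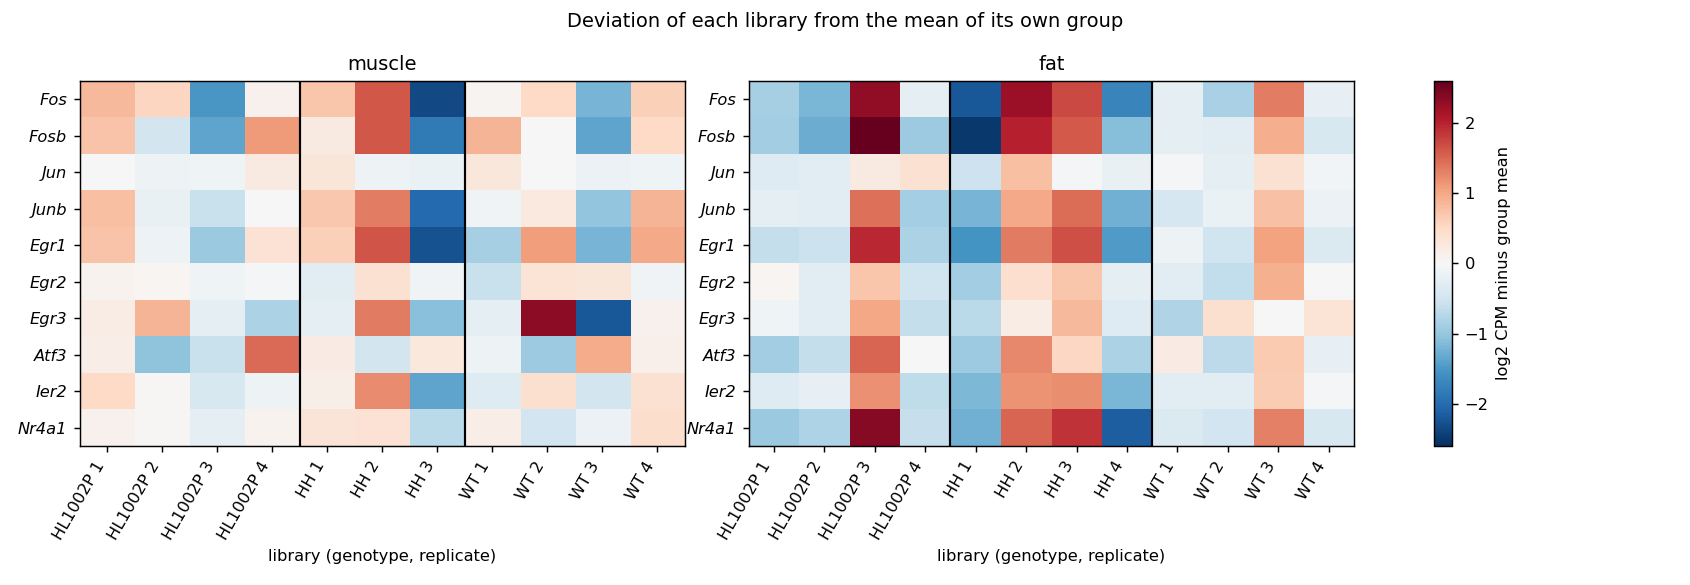
Deviation of log2 CPM from the group mean for each of the 10 genes (rows) in each muscle library (left) and fat library (right); red is above and blue below the mean of the library's own group. In fat, HL1002P 3, HH 2, HH 3 and WT 3 are red for 9 or 10 genes; in muscle, HH 1 and HH 2 are red for 8 genes each and HH 3 for 1.

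Correlations between members over the deviations were taken as descriptions, over libraries that share extraction, depth and composition. In fat the median Pearson r over the 45 pairs of genes was 0.87 (12 libraries, median Spearman rho of 0.78), from 0.23 for Jun with Egr3 to 0.99 for Junb with Ier2, and 44 pairs were above 0.5. Without the 2 libraries farthest from the others, HL1002P 3 and HH 2, the median r was 0.84. In muscle the median r was 0.36 (11 libraries, rho of 0.45, and 0.42 without HH 3 and WT 3), and 19 of 45 pairs were above 0.5. Fos, Fosb, Junb, Egr1 and Ier2 kept together in muscle, with r of 0.86 to 0.96 between each of them and the mean of the other members. Atf3 stood apart there, at -0.28 with the mean of the others and -0.78 with Egr3, while in fat its r with the mean of the others was 0.92. Jun was at 0.25 in muscle, and at -0.11 without the 2 farthest libraries, and at 0.67 in fat.

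**Figure D4:**
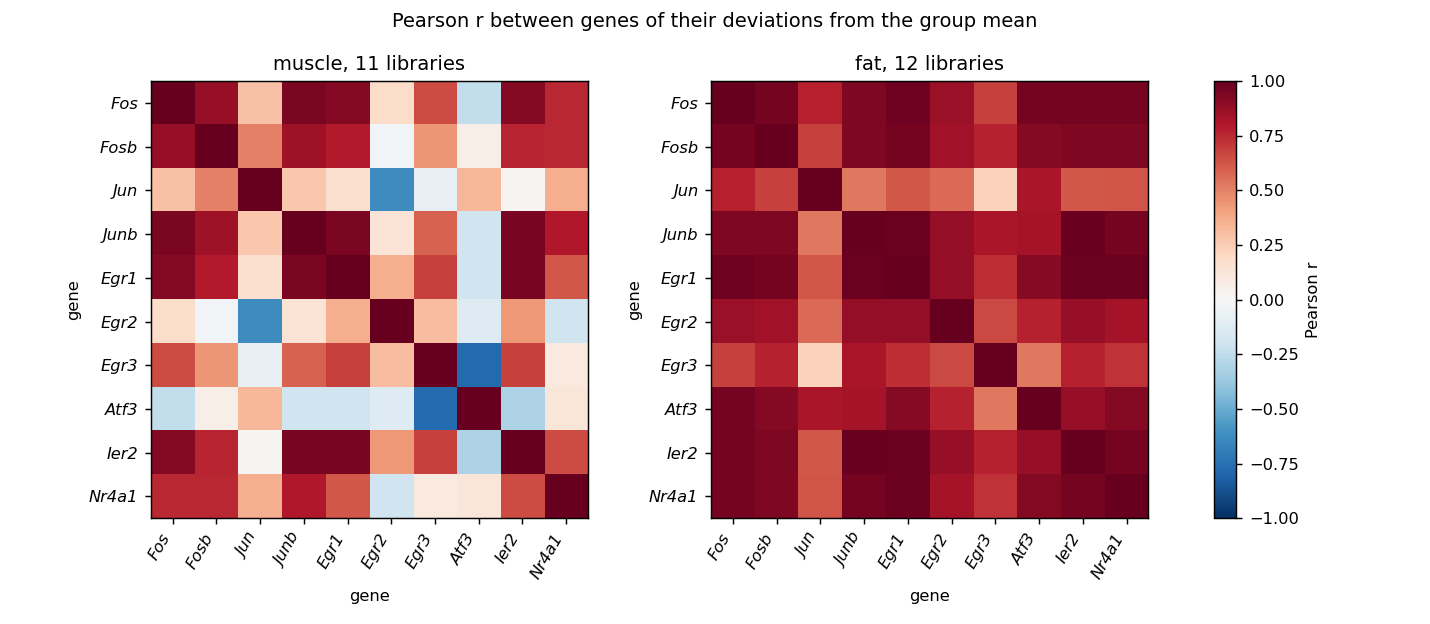
Pearson r between each pair of the 10 genes over the deviations of log2 CPM from the group mean, in 11 muscle libraries (left) and 12 fat libraries (right). The fat panel is red nearly throughout (median r of 0.87), whereas in muscle Jun, Egr2 and Atf3 fall outside the block of Fos, Fosb, Junb, Egr1 and Ier2.

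Outside the 10, the genes whose deviations were most like the members' mean in fat, of 13459 compared over 12 libraries, were Ppp1r15a (r of 0.98), a phosphatase subunit of the integrated stress response, Btg2 (0.97), an antiproliferative gene, Zfp36 (0.97), which encodes an mRNA decay factor, Plekhg2 (0.96) and Proser1 (0.96). Btg2 and Zfp36 are on the list of 35 other immediate early genes used here. In muscle, of 11567 genes over 11 libraries, they were Psmc3ip (0.94), Kptn (0.94), Gtpbp6 (0.93), Erc2 (0.90) and Fam222b (0.89), none of which is on that list. Gtpbp6 ranged only from 3.22 to 4.18 CPM there, Kptn from 10.5 to 16.3 and Fam222b from 9.08 to 12.4 CPM. Psmc3ip (1.11 to 2.6 CPM) and Erc2 (0.207 to 2.78 CPM) were low. As the highest of many r over few libraries, these values are no test. Of the other immediate early genes tested, 14 of 33 had an r above 0.7 with the members' mean in fat, where 6.1% of all genes did. In muscle 6 of 32 did, against 1.54% of all genes: Plk2 (0.88), Btg2 (0.81), Klf2 (0.80), Plk3 (0.79), Zfp36 (0.77) and Nr4a2 (0.72).

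The comparison of HL1002P with WT muscle asks what the compound BubR1 genotype changes there. None of the 10 genes passed edgeR's quasi-likelihood test with Benjamini-Hochberg adjustment over all genes (adjusted p under 0.05), where 0.117% of all genes did. DESeq2 called none either, and 1 of 10 had an unadjusted p under 0.05, in the lower direction, where 10.5% of all genes did, 3.81% in that direction. That gene was Nr4a1, with 251, 236, 192 and 246 CPM in HL1002P muscle against 381, 240, 302 and 461 CPM in WT muscle. Its log2 fold change was -0.58 ± 0.24 (SE, adjusted p = 0.434), and the highest HL1002P libraries lay above the lowest WT library. Fos had 32.1, 26.0, 6.21 and 19.2 CPM in HL1002P and 24.3, 32.9, 9.88 and 35.2 CPM in WT muscle, which overlapped throughout. The steady Jun averaged 109 ± 13.7 CPM in HL1002P and 106 ± 15.5 CPM in WT muscle. Its approximate 95% interval of the log2 fold change, -0.23 to 0.32, was the narrowest of the 10. Egr3, at 1.07 ± 0.559 and 2.87 ± 3.53 CPM, had the widest, -3.03 to 0.16. Atf3 reached 115 CPM in HL1002P replicate 4, above every other muscle library. The 12 macrophage markers summed to 152 to 463 CPM in HL1002P, 199 to 285 CPM in HH and 66.3 to 186 CPM in WT muscle, with none called, and their part in the members' levels was not tested. The median log2 fold change was -0.21 over the 10 genes and 0 over all genes, and libraries separated without overlap for none of the 10 and for 5.66% of all genes.

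The comparison of HH with WT muscle, which shares the WT libraries with the one before, gave larger fold changes for Fos, Egr1, Junb and Ier2, and again no call among the 10, where 0.377% of all genes were called. DESeq2 also called none. An unadjusted p under 0.05 was reached by 6 of 10, against 16.6% of all genes: 5 in the higher direction (9.04% of all genes) and 1 in the lower (7.51%). The 5 were Fos, Junb, Egr1, Ier2 and Jun. Fos had 120, 222 and 14.2 CPM in HH muscle, against 24.3, 32.9, 9.88 and 35.2 CPM in WT muscle, a log2 fold change of 2.22 ± 0.72 (adjusted p = 0.165). Egr1 had 113, 228 and 15.2 CPM in HH and 9.38, 36.7, 7.47 and 34.0 CPM in WT muscle (2.44 ± 0.76, adjusted p = 0.147). Replicates 1 and 2 of HH were above every WT library for both genes, and replicate 3 lay inside the WT range.

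Junb had the same pattern, with 105, 162 and 15.8 CPM in HH muscle and 20.4, 26.1, 10.8 and 40.4 CPM in WT muscle (1.95 ± 0.61, adjusted p = 0.148). Ier2 had 35.0, 73.1 and 12.1 CPM in HH and 10.4, 17.7, 9.52 and 17.4 CPM in WT muscle (1.54 ± 0.45, adjusted p = 0.133). HH replicate 3 was once more within the WT range. By its Xist and Y-linked transcripts this library was female and the other 2 HH muscle libraries male, and with sex as a covariate the log2 fold changes were 1.59 for Fos, 2 for Egr1, 1.54 for Junb and 1.25 for Ier2. Without replicate 3 they were 2.74, 2.96, 2.45 and 1.97, with adjusted p from 0.0538 for Ier2 to 0.0884 for Egr1, and without replicate 2 they were 1.39, 1.54, 1.3 and 0.77. In the mean log2 deviation of the 10 members, replicate 3 was the lowest library of every muscle group. It stood at -1.16 in HH, -0.62 in HL1002P and -0.65 in WT muscle. Replicate 4, female as well, stood at 0.24 in HL1002P and 0.39 in WT muscle. What the replicate numbers stand for is not known.

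Jun was at 168, 123 and 120 CPM in HH and 128, 104, 95.1 and 96.5 CPM in WT muscle, a difference of 0.37 ± 0.15 on the log2 scale (adjusted p = 0.249). Nr4a1 ran the other way, with 240, 246 and 118 CPM in HH muscle against 381, 240, 302 and 461 CPM in WT muscle (-0.78 ± 0.26, adjusted p = 0.173). Atf3 averaged 63.0 ± 16.6 CPM in HH and 28.8 ± 15.6 CPM in WT muscle (1.13 ± 0.54, adjusted p = 0.318). Fosb, Egr2 and Egr3 overlapped widely, with log2 fold changes of 1.02, 0.35 and -0.35. The median over the 10 was 1.08, against 0.01 over all genes, and no member separated without overlap, where 13.9% of all genes did.

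Set against each other in muscle, HL1002P and HH differed by no call among the 10, where 0.0206% of all genes were called, and DESeq2 called none. An unadjusted p under 0.05 was reached by 5 of 10, all in the lower direction, against 4.60% of all genes, 2.39% in that direction: Fos (-2.51 ± 0.73, adjusted p = 0.868), Junb (-2.11), Egr1 (-2.38), Ier2 (-1.68) and Egr2 (-0.62). Egr2 was the member whose libraries did not overlap, with 2.30, 2.23, 1.99 and 2.07 CPM in HL1002P muscle against 2.61, 4.26 and 3.01 CPM in HH muscle, where 5.37% of all genes separated in this way. For the other 4 the difference again came with HH replicates 1 and 2. The median over the 10 was -1.35, against 0 over all genes. This comparison and that of HH with WT muscle rest on the same 3 HH libraries.

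Of the other genes of the pathway in muscle, the list of other immediate early genes had 0 of 32 called in HL1002P against WT and 1 of 32 in HH against WT. That gene was Plk2, which encodes a polo-like kinase, higher at 28.9 ± 13 CPM in HH than at 9.47 ± 2.68 CPM in WT muscle (1.60 ± 0.28, adjusted p = 0.0315). The next by p in HH muscle did not pass: Socs3, a cytokine signalling inhibitor, averaged 16.7 ± 13.5 CPM in HH and 4.52 ± 0.989 CPM in WT muscle, Ier3 16.0 ± 3.33 and 9.16 ± 2.29 CPM, and Nr4a2, a relative of Nr4a1, 2 ± 0.932 and 4.23 ± 1.13 CPM. In HL1002P muscle the 4 with the smallest p were Nr4a2 (1.47 ± 0.417 CPM in HL1002P and 4.23 ± 1.13 CPM in WT, adjusted p = 0.125), Arc, Klf2 and Klf4, with log2 fold changes of -1.52, -1.03, -0.75 and -0.48. Between HL1002P and HH muscle they were Plk2 (14.7 ± 2.21 and 28.9 ± 13 CPM, adjusted p = 0.839) and Btg2 (39.8 ± 15.6 and 104 ± 83.3 CPM).

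The 15 feedback genes of the ERK pathway, phosphatases of the Dusp family and Spry and Spred inhibitors, had no call in any muscle comparison. Dusp8 averaged 30.4 ± 4.24 CPM in HH and 51.4 ± 3.79 CPM in WT muscle (-0.76 ± 0.16, adjusted p = 0.0662), Spry4 4.99 ± 1.06 and 8.84 ± 2.26 CPM (-0.83), and Dusp5 0.763 ± 0.338 CPM in HL1002P and 0.254 ± 0.1 CPM in WT muscle (1.57). In HL1002P muscle Dusp8 averaged 39.6 ± 9.11 CPM (-0.38 against WT), and Dusp1 had a log2 difference of -0.75 between HL1002P and HH. None of the 32 upstream kinases and factors was called in muscle: the smallest p were those of Map2k7 (-0.30) and Map2k3 (0.40) in HL1002P against WT, Map2k6 (-0.66) and Mknk2 (1.01) in HH against WT, and Map2k6 (0.55) in HL1002P against HH. Nor was any of the 13 AP-1 partners and Egr corepressors, among which Batf3 (1.47) and Maf (-0.53) led in HL1002P, and Maf (-0.69) and Batf3 (1.31) in HH.

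**Figure D5:**
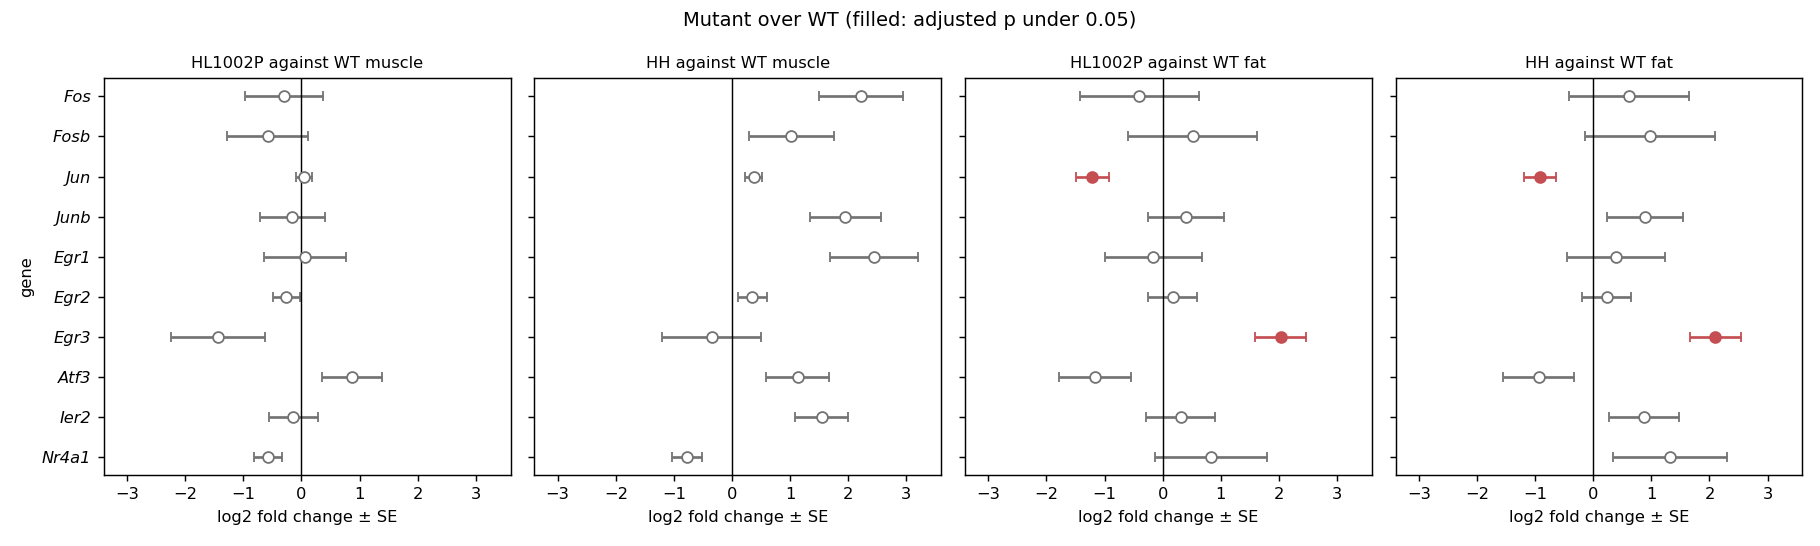
Log2 fold change ± SE (edgeR) of the 10 genes for HL1002P over WT and HH over WT in muscle and in fat; filled red points have an adjusted p under 0.05. Jun (-1.21 and -0.92) and Egr3 (2.03 and 2.10) in fat are the filled points, and Fos, Junb, Egr1 and Ier2 in HH muscle have the large open ones.

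In fat, Jun fell and Egr3 rose in both mutants, and no other member passed the test. In HL1002P against WT fat that is 2 of 10 genes, where 31.8% of all genes were called, with 1 higher (17.3% of all genes) and 1 lower (14.5%), so the share of members called was below the background. In HH against WT fat it is 2 of 10, where 20.8% of all genes were called, 12.3% higher and 8.59% lower. The comparisons share the WT libraries. DESeq2 called the same 2 genes in both. With library totals in place of TMM factors the median log2 difference of all genes moved by 0.17 in HL1002P and 0.15 in HH, and Jun in HL1002P was then at -1.05 (adjusted p = 0.0344). Libraries separated without overlap for 2 of 10 members in HL1002P (27.5% of all genes) and for 1 of 10 in HH (25.9%).

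Egr3 had 19.0, 16.9, 41.5 and 13.5 CPM in HL1002P fat and 13.6, 25.2, 39.9 and 17.5 CPM in HH fat, against 3.08, 7.12, 5.33 and 6.86 CPM in WT fat. Every library of either mutant was above every WT library. The log2 fold change was 2.03 ± 0.44 in HL1002P (adjusted p = 0.0106) and 2.10 ± 0.44 in HH (adjusted p = 0.0133), that is 4.07-fold and 4.30-fold. Egr3 is known for roles in lymphocytes and in muscle spindles. The 15 lymphocyte markers, Cd79a and Cd3e among them, moved with it: all 15 were called higher in HL1002P fat and 12 of 15 in HH fat, and their summed level was 1580 to 4260 CPM in HL1002P, 1890 to 3600 CPM in HH and 96.1 to 821 CPM in WT fat. None of the 15 was at 0 in any fat group. The 12 macrophage markers summed to 1680 to 3870 CPM in HL1002P, 2030 to 4480 CPM in HH and 1880 to 2230 CPM in WT fat, with 1 and 0 called. With the mean log2 level of these markers as a covariate the log2 fold change of Egr3 was 0.57 in HL1002P (adjusted p = 1) and 0.83 in HH (adjusted p = 0.98). Since no mutant library had a marker sum as low as a WT library, genotype and lymphocyte markers cannot be told apart here.

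Jun had 57.1, 59.0, 85.3 and 95.6 CPM in HL1002P fat and 59.0, 147, 81.8 and 74.9 CPM in HH fat, against 163, 141, 223 and 159 CPM in WT fat. All HL1002P libraries were below all WT libraries, and HH replicate 2, a library high for the other members, was above WT replicate 2. The log2 fold change was -1.21 ± 0.28 in HL1002P (adjusted p = 0.0128) and -0.92 ± 0.28 in HH (adjusted p = 0.0403). With the lymphocyte marker covariate it was -1.26 and -0.97, with adjusted p of 1 and 0.98. Since this covariate cannot be told apart from genotype in fat, the loss of the call does not separate them. The call in HL1002P was lost without HL1002P replicate 2 (-1.07, adjusted p = 0.0539). In HH it was lost with sex as a covariate (-0.85, adjusted p = 0.0698), with HH and WT fitted alone (-0.86, adjusted p = 0.0814), without the 2 fat libraries high in muscle fibre markers (-0.58, adjusted p = 0.145), with library totals in place of TMM factors (-0.74, adjusted p = 0.117), and on leaving out any 1 library but HH replicate 2: HH replicate 1 (-0.72, adjusted p = 0.0862), HH 3 (-0.82, 0.14), HH 4 (-0.77, 0.104), WT 1 (-0.92, 0.0881), WT 2 (-0.97, 0.0668), WT 3 (-0.77, 0.0724) or WT 4 (-0.95, 0.06). Endothelial markers, Pecam1 and Cdh5 among them, were lower for 8 of 10 in HL1002P and 4 of 10 in HH, and adipocyte markers for 5 and 0 of 10; their sums were 816 to 1160 CPM in HL1002P, 1070 to 1270 CPM in HH and 1330 to 1940 CPM in WT for the endothelial list, and their part in the level of Jun was not tested.

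For the remaining 8 members the mutant and WT libraries overlapped in fat. Fos averaged 105 ± 135 CPM in HL1002P, 212 ± 222 CPM in HH and 139 ± 104 CPM in WT fat, and its 95% interval of the log2 fold change reached from -2.42 to 1.61 in HL1002P and from -1.41 to 2.63 in HH. Egr1 averaged 155 ± 176, 228 ± 210 and 174 ± 99.8 CPM in HL1002P, HH and WT fat, Junb 144 ± 117, 202 ± 168 and 109 ± 44.6 CPM, and Ier2 99.2 ± 66.3, 146 ± 114 and 80.1 ± 28.2 CPM. The intervals thus allow changes of 2-fold and more in either direction for Fos and Egr1. Atf3 had 3.81, 4.65, 20.5 and 7.31 CPM in HL1002P fat, 4.47, 20.5, 12.5 and 4.82 CPM in HH fat, and 22.1, 11.9, 30.8 and 16.5 CPM in WT fat. Its log2 fold changes were -1.16 ± 0.62 (adjusted p = 0.159) and -0.94 ± 0.61 (adjusted p = 0.266). The median over the 10 genes was 0.24 in HL1002P and 0.74 in HH, against -0.07 and -0.06 over all genes.

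Between HL1002P and HH fat, no member was called, as was no gene of the 16266 tested (0%). DESeq2 called none of the 10, and none reached an unadjusted p under 0.05, where 3.29% of all genes did. No member separated without overlap (2.13% of all genes). All 10 log2 fold changes were negative, with a median of -0.47 against 0.01 over all genes, from -1.01 for Fos to -0.06 for Egr2, and the intervals of Jun (-0.83 to 0.26) and Egr3 (-0.90 to 0.74) were the narrowest.

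Of 33 other immediate early genes, 5 rose and 4 fell in HL1002P, a smaller share than the 31.8% of all genes called there, and 3 rose and 2 fell in HH, a smaller share than the 20.8% of all genes. The median log2 fold change of the list was -0.24 and -0.04, against -0.07 and -0.06 over all genes. Klf6, a zinc finger factor, fell to 113 ± 19.0 CPM in HL1002P and 118 ± 11.3 CPM in HH, against 179 ± 18.2 CPM in WT (-0.67 and -0.61, adjusted p = 0.00907 and 0.0158). Ier5 rose to 104 ± 27.1 and 98.8 ± 35.0 CPM, against 40.9 ± 16.4 CPM in WT, and Nr4a3, a nuclear receptor related to Nr4a1, to 1.95 ± 0.299 and 1.69 ± 0.438 CPM, against 0.912 ± 0.185 CPM. Fosl2, which encodes a Fos family protein, fell in HL1002P (50.6 ± 18.0 against 87.6 ± 16.9 CPM in WT), and Gadd45g in HH (52.9 ± 17.7 against 137 ± 41.5 CPM). The part of cell composition in the levels of this list was not tested. Between HL1002P and HH fat none of the 33 was called, and Arid5b (-0.31) and Ier5l (-0.37) had the smallest p.

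Among the 15 ERK feedback genes 2 rose and 6 fell in HL1002P, where 17.3% of all genes rose and 14.5% fell, and 1 rose and 5 fell in HH, where 12.3% rose and 8.59% fell. Endothelial markers (8 of 10 lower in HL1002P, 4 of 10 in HH) and adipocyte markers (5 of 10 and 0 of 10) fell in the same libraries, and their part in these counts was not tested. Spry1 fell to 19.3 ± 6.50 CPM in HL1002P against 44.0 ± 6.38 CPM in WT fat (-1.19 ± 0.21, adjusted p = 0.00775), and Spred2 to 11.8 ± 2.82 against 22.1 ± 1.89 CPM (-0.91). In HH, Dusp10 fell to 18.8 ± 0.883 CPM against 58.7 ± 22.2 CPM in WT (-1.64 ± 0.27, adjusted p = 0.0113), and Spry4 to 13.5 ± 2.89 against 67.5 ± 34.7 CPM (-2.32). The median of the list was -0.80 in HL1002P and -0.45 in HH, against -0.07 and -0.06 over all genes. The genes that rose were Dusp2 in both mutants and Dusp5 in HL1002P. Dusp10 had a log2 difference of 0.66 between HL1002P and HH (adjusted p = 0.999).

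Of the 32 upstream kinases and factors 5 rose and 4 fell in HL1002P, a smaller share than the 31.8% of all genes called, and 6 rose and 4 fell in HH, where 20.8% of all genes were called. The median of this list was 0.02 and 0.01. Mkl1, which encodes a coactivator of serum response factor, rose to 89.0 ± 16.6 CPM in HL1002P and 89.2 ± 24.0 CPM in HH, against 44.1 ± 5.04 CPM in WT fat (1.01 and 1.02, adjusted p = 0.00852 and 0.0122). Creb1, the factor that binds the cAMP response element, rose to 79.0 ± 15.3 CPM in HL1002P against 46.4 ± 7.68 CPM in WT, and Rps6ka3, a kinase downstream of ERK, fell to 109 ± 19.2 CPM in HH against 224 ± 69.8 CPM in WT. Among the 13 partners and corepressors, Batf, an AP-1 partner of lymphocytes, rose to 22.4 ± 8.87 and 17.1 ± 4.15 CPM, against 6.90 ± 2.25 CPM in WT, and Mafg fell in HL1002P (16.6 ± 3.87 against 24.4 ± 3.02 CPM). Jdp2, a repressor of AP-1, did not pass in HH (-0.70, adjusted p = 0.0901). Lymphocyte markers rose in the same fat groups, with 15 of 15 called in HL1002P and 12 of 15 in HH. Their part in the levels of both lists was not tested. Mapk8 (0.32) had the smallest p of the upstream list between HL1002P and HH, and was not called.

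Muscle was set against fat in WT in 1 fit of all 23 libraries, on a common TMM scale. This scale matters: with library totals alone the median log2 difference of all genes, -0.30 with TMM, moved by -1.17 to -1.47. Of the 10 members 5 were called, 3 higher and 2 lower in muscle, where 73.5% of all genes were called, 31.9% higher and 41.6% lower. Nr4a1 had the largest difference, at 547 ± 148 CPM in WT muscle and 33.7 ± 24.5 CPM in WT fat (4.02 ± 0.85, adjusted p = 0.000305), and it was also called under library totals (2.78, adjusted p = 0.00464) and without any 1 of the 8 WT libraries. Atf3 averaged 45.4 ± 24.3 CPM in muscle and 13.5 ± 5.38 CPM in fat (1.74 ± 0.61, adjusted p = 0.0155), a call lost without WT muscle replicate 3 (1.34, adjusted p = 0.066) and under library totals (0.54, adjusted p = 0.429). Jun, at 168 ± 25.2 and 114 ± 23.3 CPM, was higher in muscle under TMM (0.55 ± 0.23, adjusted p = 0.0387) and lower under library totals (-0.64, adjusted p = 0.0358), so its direction rests on the scaling. With a filter of a mean of at least 1 CPM it was not called (0.38, adjusted p = 0.148).

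Egr2 averaged 4.08 ± 1.15 CPM in WT muscle and 7.65 ± 3.91 CPM in WT fat (-0.91 ± 0.37, adjusted p = 0.0314), and Ier2 21.8 ± 7.06 and 53.4 ± 18.4 CPM (-1.29 ± 0.57, adjusted p = 0.047). Both were lost without fat WT replicate 3, the high WT library (-0.50 and -1.02, adjusted p = 0.207 and 0.133), and both were lower in muscle under library totals too (-2.11 and -2.48). Egr2 was also lost without WT muscle replicate 1 or 4 (adjusted p = 0.0967 and 0.0678), Ier2 without WT muscle replicate 1, 2, 3 or 4 or fat WT 4 (adjusted p of 0.0508 to 0.11), and Jun without WT muscle replicate 1 or 2 or fat WT 1, 2 or 4 (adjusted p of 0.0587 to 0.126). Fos, Junb and Egr1 were not called under TMM (-1.19, -0.91 and -1.74) and were called lower in muscle under library totals. The median over the 10 was -0.61.

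Across the 6 groups, on the common scale, the order of the levels differed from gene to gene. The place of muscle groups among fat groups rests on this scale. Library totals moved the median log2 difference of all genes between WT muscle and WT fat by -1.17. Nr4a1 was highest in WT muscle (547 CPM), then HL1002P (361) and HH muscle (311), then HH (83.3), HL1002P (59.9) and WT fat (33.7), and in this order HH muscle and HH fat were the only neighbours that differed (adjusted p = 0.046). Jun ran from HH muscle (210 CPM) through HL1002P (171) and WT muscle (168) to WT (114), HH (59.7) and HL1002P fat (49.3), with steps between WT muscle and WT fat (adjusted p = 0.0387) and between WT and HH fat (0.00744 in this fit). Atf3 had the same 3 muscle groups on top, with HH at 96.6 and HL1002P fat the lowest at 6.03 CPM. Egr3 was highest in HH fat (15.9 CPM), followed by HL1002P fat (15.1). The step from HL1002P fat to WT muscle, next at 4.58 CPM, was 1.71 on the log2 scale (adjusted p = 0.0328). Fos, Egr1 and Junb were highest in HH muscle, at 185, 185 and 146 CPM, and no neighbours in their order differed, as was the case for Fosb and Egr2. Ier2 was highest in HH fat (96.5 CPM), and its one step lay between WT fat (53.4) and WT muscle (21.8).

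Whether a mutant's effect differed between the tissues was tested as an interaction in the same fit. For HL1002P 2 of 10 members passed, 1 with a positive and 1 with a negative difference of the muscle minus the fat log2 fold change, where 11.3% of all genes did, 5.69% positive and 5.60% negative. For Jun the signed log2 fold change in muscle minus that in fat was 1.24 ± 0.33 (adjusted p = 0.0278), with values of 0.05 in muscle, where Jun was not called, and -1.21 in fat, where it fell. For Egr3 the same difference was -3.49 ± 1 (adjusted p = 0.0348), from values of -1.43 in muscle and 2.03 in fat. For HH 1 of 10 passed, with a positive difference, where 3.71% of all genes did, 1.73% positive: Jun, at 1.26 ± 0.34 (adjusted p = 0.0458), from 0.37 in muscle and -0.92 in fat. Egr3 did not pass there (-2.47 ± 1.03, adjusted p = 0.157), nor did Atf3 in either (2.02 and 2.05, adjusted p = 0.119 and 0.168). With library totals Jun was at 1.12 for HL1002P (adjusted p = 0.0683) and 1.21 for HH (adjusted p = 0.0946), neither of them called. The call of Jun in HH also ended with no filter on low counts (adjusted p = 0.0545) and with sex as a covariate (0.0512).

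The calls of these interactions depended on single libraries. The one of Egr3 in HL1002P was lost without WT muscle replicate 2, whose 8.08 CPM of Egr3 was the highest in muscle (-2.12, adjusted p = 0.0999), and also without HL1002P muscle replicate 1, 3 or 4, fat WT 1 or fat HL1002P 1, 2 or 3 (adjusted p of 0.0563 to 0.0776). Jun in HL1002P was lost without WT muscle replicate 4, HL1002P muscle 4, fat WT 1 or fat HL1002P 1 or 2 (1.14 to 1.26, adjusted p of 0.0505 to 0.0661). In HH it was kept only without fat HH 1 or 2, and the 13 other single omissions gave 1.11 to 1.37 with adjusted p up to 0.118.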

How the data were processed

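The authors deposited a table of raw read counts per gene for 23 RNA-seq libraries and 24062 genes, of which 3605 had no count. Per the submitters' processing notes the tools were TopHat2 2.0.14, Bowtie2 2.2.6 and featureCounts 1.4.6 with mm10. The annotation, strand setting and treatment of multimapped reads are not given in the sources used here.

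Counts were tested with edgeR 4.0.16 (R 4.3.3; TMM scaling, filterByExpr, quasi-likelihood test) with Benjamini-Hochberg adjustment over all genes tested: 14580 in muscle and 16266 in fat, each with its 3 genotypes in 1 fit, and 16863 in the fit of all 23 libraries. The threshold was an adjusted p of 0.05. CPM were computed on TMM-scaled library sizes within a tissue, or over both tissues for the common scale, and levels per kilobase used GENCODE exon lengths. For spread and likeness the log2 CPM carried a prior count of 2. The scripts were tested on simulated data. No replicates were duplicates: the lowest chi-square per gene between any pair was 31.6. Alternatives were DESeq2 1.42.0, RLE factors, library totals, other filters, groups alone, sex, lymphocyte marker and replicate covariates, and libraries left out.

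The members and lists were chosen with earlier results of these data known. Named genes of a list are those with the smallest p (4 of the other immediate early genes and 2 of each other list, and 2 and 1 between the mutants), with the 5 genes most alike per tissue. A gene that this rule names is not reported here. Dusp2 and Dusp5 in fat, and the other immediate early genes named for their correlation with the members in muscle, were picked once their values had been seen. Replicate numbers were not taken as pairs in the main fits, and a replicate block was fitted only as an alternative. Between HL1002P and HH muscle every correlation of same-numbered deviations was above the limit of 0.1 (0.217 to 0.286 in 3 pairs). In the other comparisons not every pair was, which does not exclude pairing. By their transcripts muscle replicates 1 and 2 were male and 3 and 4 female. The number thus went with sex in muscle, and such correlations need not mark pairs.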

Additional observations from a re-analysis of the deposited data

Results flagged for a closer look

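In fat, 11 values of 6 members stood far above the other libraries of their group of 4 by Dixon's criterion. It was applied to CPM without logs, over 50 combinations of gene and group. The nominal rate of 1 in 20 is no measure of chance here, since the members share libraries and deviations and CPM are skewed. The 11 values came from 2 libraries. In HL1002P replicate 3, Fos had 308 CPM against a next highest 52.0, Fosb 39.9 against 2.41, Junb 318 against 98.2, Egr1 419 against 72.9, Ier2 198 against 75.0 and Nr4a1 270 against 34.4 CPM. In WT replicate 3, Fos had 293 CPM against 100.0, Fosb 14.4 against 6.37, Junb 175 against 93.1, Egr1 322 against 142 and Nr4a1 106 against 33.1 CPM. HH fat had 2 high and 2 low libraries, so neither stood alone there, and the HH muscle group of 3 was not examined. The muscle fibre marker sum was 160 CPM in HL1002P replicate 3 and 15700 CPM in WT replicate 3, and the part of cell composition in these values was not tested.

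The interaction test of edgeR, between muscle and fat, was passed by Jun in HL1002P (1.24, muscle minus fat log2 fold change) and in HH (1.26), and by Egr3 in HL1002P (-3.49). These calls depended on single libraries. Leaving out 1 library at a time lost the call of Jun in 5 of 16 fits for HL1002P and in 13 of 15 for HH. It lost that of Egr3 in 8 of 16 fits. With library totals neither call of Jun was kept.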

How the results depend on the processing

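Counts of members called kept within 1.5 times their value, and spread and likeness kept within theirs, in 168 of 218 alternative values, and the log2 fold changes kept direction and side of the threshold in 391 of 463, with 70 losing the call, 1 gaining it and 1 reversing; the cause of each was not tested. With library totals only (chosen after seeing the data) Jun reversed between WT muscle and WT fat, to -0.64, and the calls were 1 in HH against WT fat, 1 for the HL1002P interaction and 0 for the HH interaction. With the lymphocyte marker covariate, which cannot be told apart from genotype there, 0 members were called in either fat comparison with WT. In HH against WT fat 1 was called, Egr3, with sex as a covariate, with the groups alone, and without the 2 fat libraries high in muscle fibre markers (also chosen after seeing the data). The HH interaction had 0 calls with no filter and with sex. With the replicate block 1 was called in HH against WT muscle (Fos, 1.85, adjusted p = 0.0393). It gave 3 calls between WT muscle and WT fat, and 0 in both interactions. Same-numbered libraries correlated at 0.002 to 0.28 in HH against WT muscle and at 0.011 to 0.143 between the WT tissues. Not every pair was above the limit of 0.1, and whether the numbers mark pairs there is not known. In HL1002P against HH muscle, where every pair was above that limit, the replicate block gave 0 calls as well. Leaving out 1 library at a time gave 1 to 2 calls in either fat comparison with WT, 2 to 4 between the tissues, 0 to 2 for the HL1002P and 0 to 1 for the HH interaction, and 0 in the muscle comparisons and between the fat mutants. The median spread was 0.78 to 1.03 in muscle and 0.94 to 1.08 in fat, and the median likeness 0.3 to 0.48 and 0.84 to 0.89. Groups of 3 or 4 libraries limit the fold changes of Fos, Fosb, Egr1 and Nr4a1, whose SE in fat were 0.84 to 1.12, and the low counts of Egr3 in muscle, from 12 reads, limit that gene there.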
